A study of Homo sapiens with 3 samples.

Results

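Binding of BMAL1 and MAX was examined at 8 genes of the Krüppel-like factor (KLF) family, KLF4, KLF5, KLF6, KLF9, KLF10, KLF11, KLF13 and KLF15, several of which are known as rhythmically expressed outputs of the circadian clock. A peak was taken to lie at a gene when its summit fell within the gene body or within 20 kb of a transcription start site (TSS) of any transcript that GENCODE annotates for the gene on hg19. By this rule, 20 of 13650 MAX peaks and 1 of 756 BMAL1 peaks lay at the 8 genes, which were part of 20163 protein-coding genes. The chromatin came from MDA-MB-231 cells, an established human triple-negative breast cancer line, crosslinked with formaldehyde while subconfluent. The labels give no synchronisation, drug or time point for them. Chromatin was immunoprecipitated with an anti-BMAL1 or an anti-MAX antibody, and input chromatin of the same line served as the control for both. Each antibody and the input are represented by 1 library, so no value has a replicate check. The BMAL1 list rests on 13866783 tags, the MAX list on 11545865 and the shared input on 29308882, and a gene without a listed peak is one where no signal passed the peak caller's cutoff at this depth.

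KLF proteins are transcription factors with a C-terminal array of C2H2 zinc fingers that recognises GC boxes and CACCC elements, the same kind of site that SP proteins bind. Members differ in their N-terminal domains, through which some recruit coactivators and others, such as KLF9, KLF10, KLF11 and KLF13, recruit the SIN3A corepressor. BMAL1 binds the E-box as a heterodimer with CLOCK and drives PER, CRY and output genes, and MAX binds the same element as a homodimer or with MYC, MXD or MNT partners. KLF9, KLF10 and KLF15 are the members best known to cycle under the clock in skin, liver and muscle.

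The sequences that carry the results are the E-box-like elements inside the peaks. The E-box CACGTG and the E'-box (CACGTT, or AACGTG on the other strand) were searched on both strands of hg19 and are set in capitals, with bases given 5′ to 3′ on the plus strand. The only site with both factors, in the 5′ untranslated region of KLF9, had no E-box and held a single E'-box, shown with 12 bases to either side (chr9:73029157-73029186). The pair of KLF15 sites are the only ones with an E-box at the summit, and the 200 bp at each summit are shown (chr3:126074651-126074850 in the intron and chr3:126076915-126077114 upstream). The other elements inside MAX peaks at KLF9 (chr9:73033487-73033516 and chr9:73035098-73035127) and KLF4 (chr9:110266714-110266743) are shown because they lay away from the summits, and so is an E'-box in the upstream KLF15 peak (chr3:126076587-126076616), 412 bp from its summit. The KLF6 element (chr10:3822657-3822686) was the only E'-box at a summit.
KLF9 shared site, E'-box: ggcctcctggctCACGTTccagcttgcgga
KLF15 intronic site, E-box: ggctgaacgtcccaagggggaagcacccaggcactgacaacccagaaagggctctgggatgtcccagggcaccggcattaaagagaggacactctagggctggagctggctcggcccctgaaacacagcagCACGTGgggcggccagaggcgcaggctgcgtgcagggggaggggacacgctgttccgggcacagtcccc
KLF15 upstream site, E-box: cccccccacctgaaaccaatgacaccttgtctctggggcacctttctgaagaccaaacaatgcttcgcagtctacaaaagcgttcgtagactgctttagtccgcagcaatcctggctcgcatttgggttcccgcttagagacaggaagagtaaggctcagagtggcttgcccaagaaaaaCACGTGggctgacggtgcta
KLF9 upstream site, E-box: ggggtagaggatCACGTGttggacctcatt
KLF9 far upstream site, E'-box: aaatatagcgctCACGTTtcatcatctctt
KLF4 distal site, E-box: accagtttgcccCACGTGggtaagggagag
KLF15 upstream peak, E'-box: tcccaaggtgagAACGTGagactggcctga
KLF6 intronic site, E'-box: gtcatcaaagttAACGTGgaagaacgacca

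MAX was present at 6 of the 8 genes, and BMAL1 at KLF9 alone. KLF6 and KLF9 had 5 MAX peaks each, KLF10 had 4, KLF4 had 3, KLF15 had 2 and KLF5 had 1. Neither factor had a peak at KLF11 or KLF13. Under the same rule, a MAX peak lay at 54.8% of all protein-coding genes and a BMAL1 peak at 4.97%, so the members' 6 of 8 for MAX and 1 of 8 for BMAL1 stand beside these shares without a test. Within 1 kb of a TSS, a window that does not grow with the gene body, the counts at the KLF genes were again 6 of 8 and 1 of 8, against 36.3% of protein-coding genes for MAX and 1.84% for BMAL1. The windows of the members had a median length of 44094 bp, against 56098 bp over all protein-coding genes. At least 4 MAX peaks, a number chosen after the values were seen, lay at 3 of 8 members and at 4.97% of protein-coding genes.

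**Figure D1:**
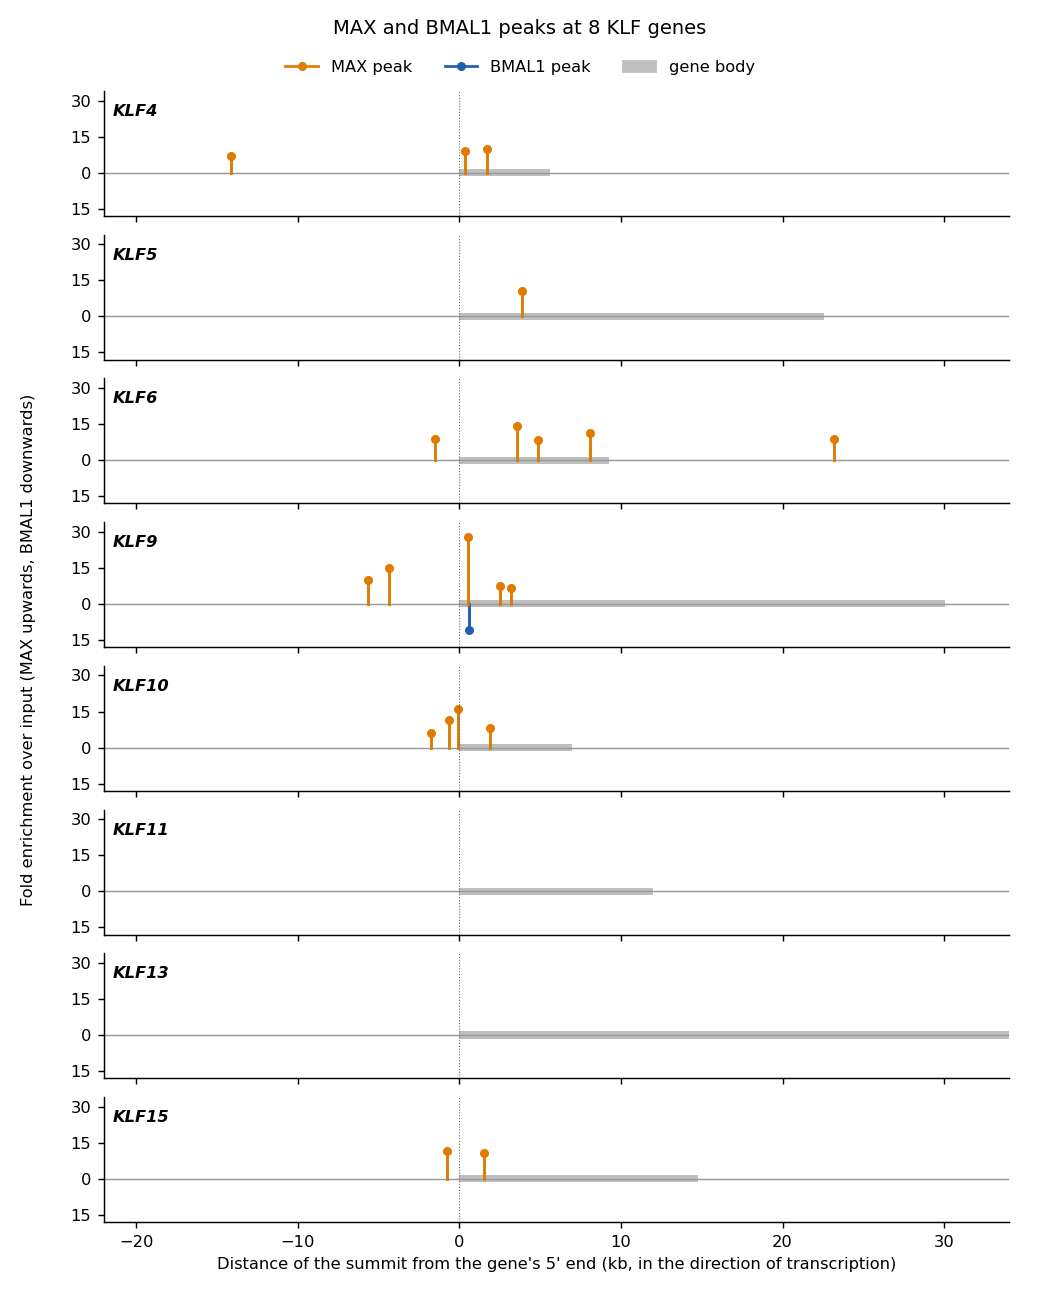
Position of each peak summit from the annotated 5' end of the gene (x axis, kb in the direction of transcription) and its fold enrichment over input (y axis, MAX in orange upwards and BMAL1 in blue downwards), with the gene body in grey; the body of KLF13 runs on past the right edge. The 5 peaks of KLF6 are spread along the gene, the single BMAL1 peak sits under the tallest MAX peak at KLF9, and the rows of KLF11 and KLF13 are empty.

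KLF9, a repressor induced by glucocorticoids and known to follow the clock in keratinocytes, lies on the minus strand of chromosome 9 (72999520 to 73029573) and has a single annotated TSS. Its BMAL1 peak (73028744 to 73029288) had its summit 573 bp downstream of that TSS, in the 5′ untranslated region. The summit carried 25 fragments and a fold enrichment over input of 11.0, with a 95% interval of 7.13 to 16.3. This interval, like those that follow, is the exact Poisson interval of the fragment count divided by the local input background, and it covers counting error only. The BMAL1 fold enrichment was above 56.5% of the BMAL1 list, and the ends of its interval were above 16.9% and 81.1%.

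The MAX peak at the same place (73028759 to 73029547) had 56 fragments at its summit and a fold enrichment of 27.9 (interval 21.1 to 36.2), above 99.2% of the MAX list. It was the strongest MAX peak at any of the 8 genes. The peaks shared 530 bp and their summits lay 58 bp apart. Fold enrichment was lower at 606 (95.1%) of the 637 MAX peaks shared with BMAL1. A MAX peak at least this strong was found at 0.898% of protein-coding genes.

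Where several MAX peaks lay under 1 BMAL1 peak, only the one sharing most bases with it was kept, which gave 636 pairs. Over these pairs, MAX fold enrichment divided by that of BMAL1 had a median of 1.26 (range 0.144 to 4.73), and at KLF9 it was 2.53. A ratio this high or higher was seen in 53 pairs (8.33%). The libraries differ in depth and duplicate filtering, and the ratio is given as an order among pairs. Over the whole MAX list, 637 of 13650 peaks (4.67%) overlapped a BMAL1 peak, against 1 of 20 (5.0%) at the KLF genes. The other 4 MAX peaks of KLF9 overlapped no BMAL1 peak. An upstream one (73033259 to 73034261) reached 15.04 (interval 10.3 to 21.2) with its summit 4364 bp before the TSS, and its neighbour (73034635 to 73035452), 5651 bp before the TSS, reached 9.99. The intronic peaks 2485 bp and 3161 bp downstream of the TSS were weaker, at 7.62 and 6.77.

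**Figure D2:**
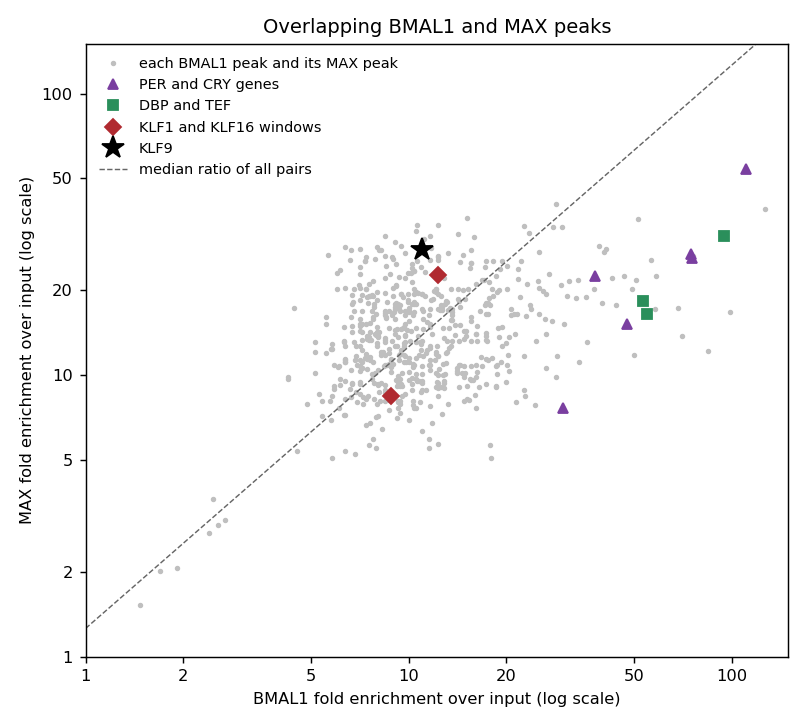
BMAL1 (x axis) and MAX (y axis) fold enrichment over input, both on log scales, for 636 BMAL1 peaks and the MAX peak that overlapped each most (grey points), with KLF9, PER and CRY, DBP and TEF, and the KLF1 and KLF16 windows marked. The dashed line is the median ratio of 1.26: the KLF9 pair lies above it at 11.0 and 27.9, and the 9 pairs at PER, CRY, DBP and TEF lie below it.

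For scale, all 5 PER and CRY genes, which encode the repressors of the clock, had a BMAL1 peak. Of the PAR bZIP output factors and their antagonist NFIL3, DBP and TEF had one, and HLF and NFIL3 had none in the window. Outside the window, a BMAL1 summit with a fold enrichment of 68.25 lay 26552 bp from an HLF TSS. A MAX summit of 17.26 lay 26629 bp from it. Fold enrichment at the 7 BMAL1 peaks of PER and CRY ranged from 12.98 at PER3 to 110.7 at PER1, and at the 3 peaks of DBP and TEF from 53.3 to 94.6. In 9 of these 10 peaks the lower bound of the interval was above the upper bound of the KLF9 peak, PER3 being the exception. Paired in the same way, 9 of the 10 had a MAX peak, with MAX to BMAL1 ratios of 0.253 to 0.598, all below the median of the 636 pairs, whereas the ratio at KLF9 was above it. A second MAX peak of 5.64 under the PER2 BMAL1 peak did not enter these pairs.

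KLF10 and KLF11 are the TGFβ-inducible early genes, closely related repressors, of which KLF10 had MAX peaks and KLF11 had none listed. KLF11 lies on chromosome 2 (10182976 to 10194963, plus strand). Its nearest MAX summit lay 76391 bp from a TSS, next to RRM2 and with a fold enrichment of 20.3, and its nearest BMAL1 summit 127903 bp away, next to GRHL1. The KLF11 window held 14 E-boxes, none of them inside a peak. Among them, 1 lay 97 bp and 1 lay 200 bp from a TSS. They are shown with 12 bases to either side (chr2:10183762-10183791 and chr2:10183465-10183494), as promoter E-boxes that were not in a listed peak.
KLF11, nearer E-box: ccgcccgcagccCACGTGcggccgctgctg
KLF11, farther E-box: ctccgaccaaaaCACGTGccgcgtcccgcc

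KLF10 (chromosome 8, 103661012 to 103667953, minus strand) had 4 MAX peaks around its 5′ end. The strongest (103667793 to 103668199), 82 bp before the TSS by its summit, had 31 fragments. Its fold enrichment of 16.0 (interval 10.9 to 22.7) was above 90.1% of the MAX list. The next, 630 bp upstream, reached 11.7 with 23 fragments. A peak 1768 bp upstream had 6.16, the lowest fold enrichment at any member, and the peak 540 bp downstream of an alternative TSS, in an intron of the canonical transcript and the 5′ untranslated region of another, had 8.24. No BMAL1 peak lay within 100 kb of a KLF10 TSS, and the nearest BMAL1 summit was 150673 bp away, close to AZIN1.

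KLF6, KLF4 and KLF5 act in growth control and differentiation. KLF6, first described as a core promoter element binding protein and later as a tumour suppressor, lies on chromosome 10 (3818188 to 3827473, minus strand). Its 5 MAX peaks were spread over the gene rather than at its 5′ end. The strongest (3823654 to 3824215) had its summit in coding sequence of the canonical transcript, 303 bp downstream of an alternative TSS, with 20 fragments and a fold enrichment of 14.1 (interval 8.61 to 21.8). A peak in the 3′ untranslated region reached 11.4 with 18 fragments. The remaining peaks had 8.77 at 1489 bp upstream of the gene, 8.25 in an intron 107 bp downstream of an alternative TSS, and 8.65 at 18101 bp from the nearest TSS, past the 3′ end. The last was the peak nearest to the 20 kb limit from inside. Beyond this limit, 3 more MAX peaks lay 22225, 26111 and 40819 bp from a KLF6 TSS with fold enrichments of 7.52, 7.59 and 8.46.

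KLF4, a factor of epithelial barrier formation and of reprogramming to pluripotency, lies on chromosome 9 (110247133 to 110252763, minus strand). A MAX peak with 12 fragments and a fold enrichment of 9.23 (interval 4.77 to 16.1) had its summit in the 5′ untranslated region of a long transcript, 398 bp upstream of the canonical TSS. An intronic peak, 1019 bp downstream of the canonical TSS, had 14 fragments and 9.87. The third lay 14124 bp upstream of the gene and had 6.89. All 3 had -log10 p-values under 12, the highest being 10.71.

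KLF5, a factor of proliferating epithelium, lies on chromosome 13 (73629114 to 73651679, plus strand) and had a single MAX peak (73632783 to 73633260). Its summit lay 136 bp upstream of the canonical TSS, within an intron of a longer transcript. With 29 fragments it had the fourth-highest pileup among the 20 MAX peaks, but the local input background of 2.76 fragments reduced its fold enrichment to 10.5 (interval 7.05 to 15.1). No E-box lay within 1 kb of a KLF5 TSS, and the nearest to the summit was 4396 bp away.

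KLF15, a regulator of amino acid and glucose metabolism, and KLF13, a factor known from T cells, had 2 MAX peaks and none listed. At KLF15 (chromosome 3, 126061478 to 126076251, minus strand) a MAX peak 763 bp upstream of the TSS (126076546 to 126077143) had 15 fragments and a fold enrichment of 11.7 (interval 6.54 to 19.3). The other, in an intron 1501 bp downstream (126074661 to 126074963), had 14 fragments and 10.9. At both, the background was the genome-wide level of 1.28 fragments. A further MAX peak lay 32078 bp from a KLF15 TSS, outside the window, with a fold enrichment of 12.3. KLF13 (chromosome 15, 31619038 to 31727868, plus strand) had the longest window, 128831 bp with 21 E-boxes, and no peak. Its nearest MAX summit lay 372689 bp from a TSS and its nearest BMAL1 summit 5703782 bp away.

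**Figure D3:**
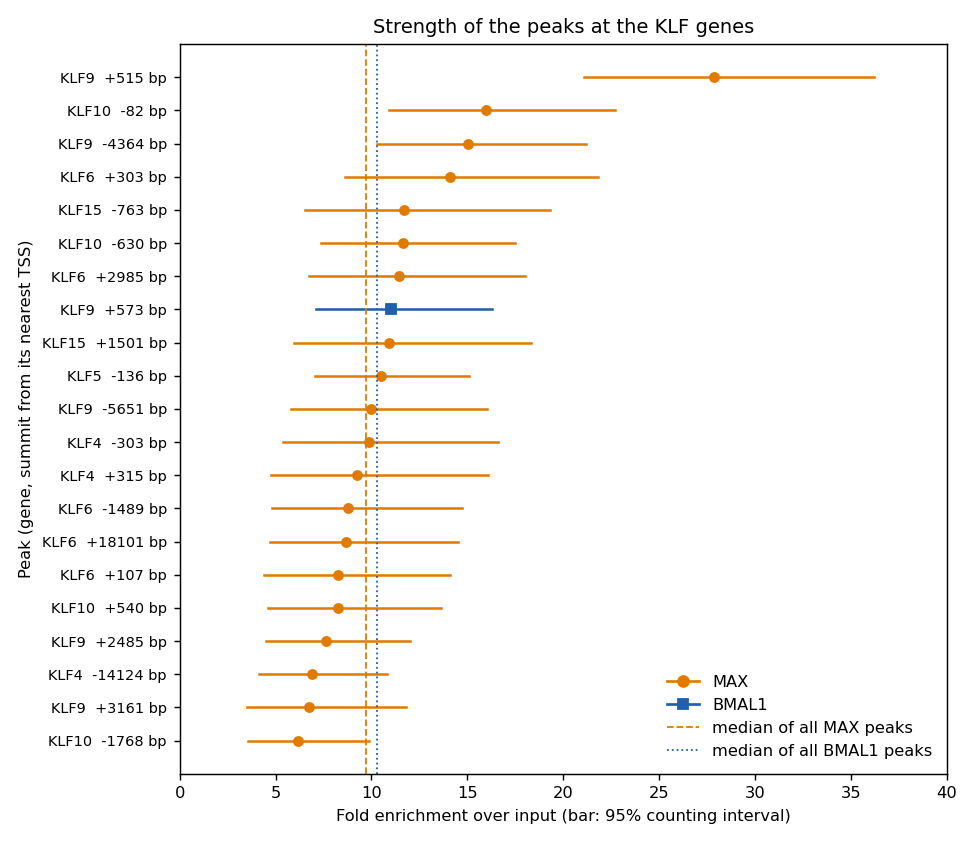
Fold enrichment over input (x axis) of the 20 MAX peaks (orange circles) and the BMAL1 peak (blue square) at the KLF genes, labelled by gene and by the distance of the summit from its nearest TSS, with bars for the 95% counting interval and lines for the median of each list. The KLF9 MAX peak 515 bp downstream of the TSS stands at 27.9, and the intervals of the other peaks overlap widely between 3.5 and 22.7.

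Ordered by fold enrichment, the 20 MAX peaks ran from 27.9 at KLF9 to 6.16 at KLF10 with a median of 9.93, against 9.73 over the whole MAX list. The strongest was 1.74 times the next, with an exact 95% interval of the ratio of 1.10 to 2.80. For the other 18 of 19 neighbouring pairs in this order, the interval of the ratio included 1. The order was set by the same counts, so these intervals do not test whether the strongest peak stands apart. The interval of the strongest KLF9 peak was reached by those of 3 others, at KLF10 (16.0), KLF9 (15.04) and KLF6 (14.1), while the other 16 ended below it. The interval of 17 of 20 peaks included the median of the list. The peaks above the list's upper quartile of 12.4 were these same 4, and 4 lay below its lower quartile of 7.86. By pileup the members had a median of 17 fragments against 18 in the list, and by length 444 bp against 446 bp.

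**Figure D4:**
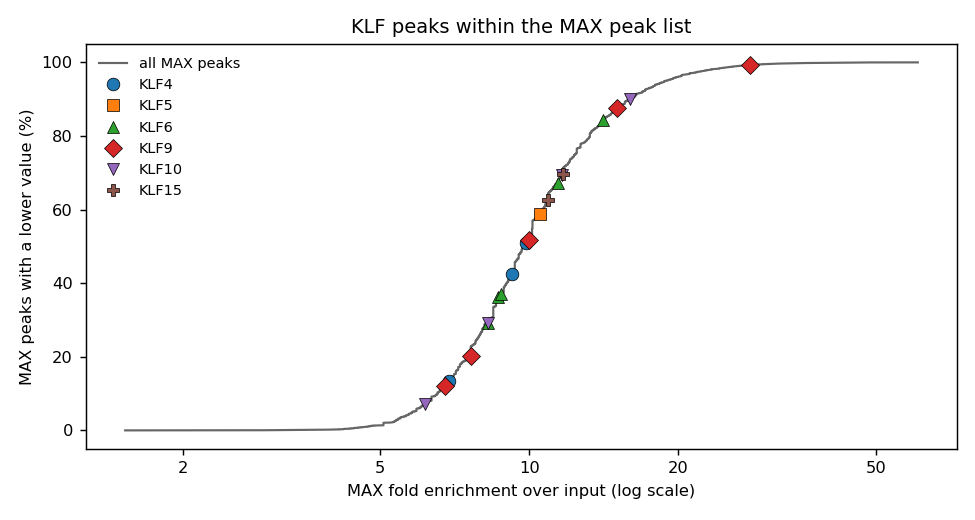
Cumulative share of MAX peaks with a lower fold enrichment (y axis, %) against fold enrichment over input (x axis, log scale), for all MAX peaks (grey line) and the 20 peaks at KLF genes (symbols by gene). The KLF peaks run along the whole curve, from KLF10 at 7.08% to KLF9 at 99.2%, with KLF4 in the lower and middle part.

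All 20 MAX peaks had a member of the list as their nearest protein-coding gene, 10 lay within 1 kb of one of its TSSs and 3 within 300 bp. By position, 11 summits were inside the gene body and 8 upstream of the 5′ end. At 7 summits, the nearest TSS of any annotated gene belonged to a long noncoding RNA. The clearest case was the KLF10 peak 630 bp upstream, which lay 109 bp from such a TSS, and the KLF9 peak 5651 bp upstream lay 607 bp from another. These counts of position have no share over all MAX peaks beside them and describe the KLF peaks only.

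An E-box was at a minority of summits, both at the KLF genes and over all MAX peaks. In the 200 bp at the summit, CACGTG occurred at 2 of 20 KLF peaks (10.0%, Wilson 95% confidence interval 2.79% to 30.1%), both at KLF15. The share over all MAX summits was 21.2%, inside this interval. At KLF15 the E-box lay 34.5 bp from the intronic summit and 83.5 bp from the upstream summit. An E'-box occurred at 1 of 20 summits, at KLF6, 90.5 bp away, and at 6.07% of all MAX summits. The related element CACGCG, or CGCGTG on the other strand, was found at 2 of 20, at KLF4 and KLF10, against 13.2% of all MAX summits. None of these elements was found at 15 of 20 summits, against 63.5% of all MAX summits. No KLF summit had a pair of elements 6 or 7 bp apart, an arrangement seen at 0.154% of MAX and 2.12% of BMAL1 summits.

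The shared KLF9 site was a BMAL1 peak without the canonical element. CACGTG occurred at 75.3% of BMAL1 summits and anywhere in 81.7% of BMAL1 peaks, and the KLF9 peak was one of the 138 (18.3%) that had none. Of these 138, 98 (71.0%) overlapped a MAX peak, as did 636 of all 756 BMAL1 peaks. An E'-box but no E-box was present in 5.29% of BMAL1 peaks. The single E'-box of the KLF9 peak, printed above, lay 114 bp from the MAX summit and 172 bp from the BMAL1 summit. The nearest E-box, at 73028617 to 73028622, lay 438 bp from the MAX summit and 380 bp from the BMAL1 summit, outside both peaks. At the clock genes used for scale, 6 of 10 BMAL1 summits had an E-box or E'-box within the 200 bp. By this narrower measure the KLF9 BMAL1 summit had neither, as did 19.7% of all BMAL1 summits.

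In all, the 8 windows held 73 E-boxes, of which 4 (5.48%, interval 2.15% to 13.3%) lay inside a MAX peak and 0 inside a BMAL1 peak. Over the windows of all protein-coding genes, 2.50% of 166135 E-boxes lay inside a MAX peak and 0.442% inside a BMAL1 peak. Those inside MAX peaks were 2 at KLF15, 1 at KLF9 and 1 at KLF4, the last a distal E-box 158 bp from its summit. Within 1 kb of a TSS, 13 E-boxes were found at 7 of the 8 genes, and 12 of them were in no MAX peak. Over all protein-coding genes, 51.5% had an E-box within 1 kb of a TSS, and 13.5% of these E-boxes lay in a MAX peak, against 1 of 13 (7.69%, interval 1.37% to 33.3%) at the KLF genes. Among these 12 were the E-box 20 bp from a KLF6 TSS (chr10:3827481-3827510) and the one 41 bp from a KLF15 TSS (chr3:126076280-126076309), chosen after the values were seen because no others at the genes lay nearer to a TSS.
KLF6, E-box nearest to the TSS: tccccctcccccCACGTGactcgccccgcg
KLF15, E-box nearest to the TSS: ctccccgccgctCACGTGacgcagcgggcg

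**Figure D5:**
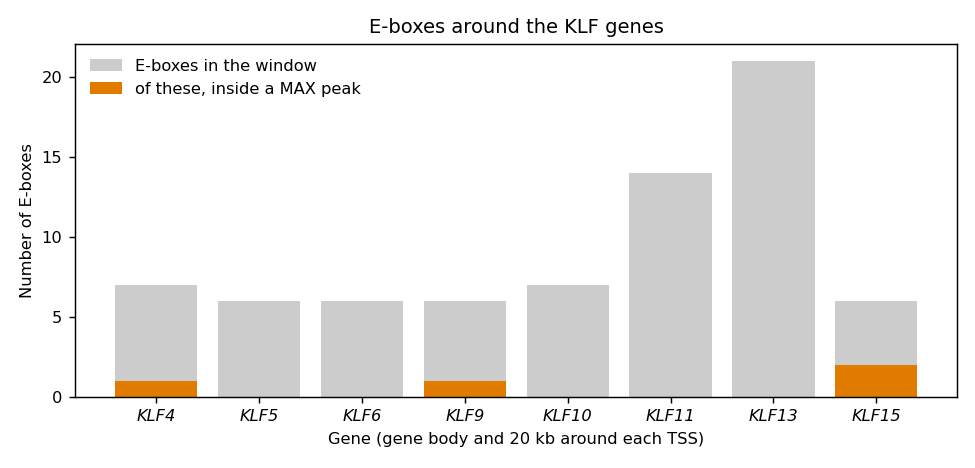
Number of E-boxes (y axis) in the window of each KLF gene (grey bars) and the number inside a MAX peak (orange). KLF13 and KLF11 have the most, 21 and 14, with none in a peak, and the 4 E-boxes in a peak are at KLF4, KLF9 and KLF15.

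The GC box GGGCGG, or CCGCCC on the other strand, which KLF and SP proteins themselves bind, was present at 9 of 20 KLF summits (45.0%, interval 25.8% to 65.8%) and at 34.3% of all MAX summits. The base composition moved with it, since the 200 bp at the KLF summits had a median GC content of 64.8% against 60.5% over all MAX peaks, and its part in the count was not tested. The GC content was above 70% at the KLF5 summit (74.5%), at the KLF9 summit 5651 bp upstream (73.5%), at the KLF10 summit 82 bp upstream (72.5%) and at the intronic KLF4 summit (71.0%). It lay between 44.5% and 48.0% at the distal KLF4 peak, the intronic KLF9 peaks and the KLF6 peaks in the 3′ untranslated region and past the gene.

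In the rest of the family, a list of 19 further KLF and SP genes, 9 (47.4%, interval 27.3% to 68.3%) had a MAX peak by the same rule. A BMAL1 peak lay at 2 (10.5%, interval 2.94% to 31.4%). The shares over all protein-coding genes, 54.8% for MAX and 4.97% for BMAL1, were inside these intervals. The BMAL1 peaks were at KLF16, a GC-box binding factor, and at KLF1, the erythroid factor. At KLF16, a BMAL1 peak 827 bp upstream with a fold enrichment of 12.3 overlapped a MAX peak of 22.6. At KLF1, the BMAL1 summit (8.81) lay 3812 bp upstream of the gene but 147 bp from the TSS of its neighbour GCDH. The strongest MAX peak of this list, 28.2, lay 8714 bp upstream of SP1, a general activator at GC boxes, and overlapped no BMAL1 peak.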

How the data were processed

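ChIP-seq reads of BMAL1, MAX and input chromatin were aligned on hg19 with BWA 0.6.2 by the authors, and peaks were called per antibody with MACS2 2.0.9. The deposited signal is the pileup of tags extended to 300 bp at the summit, unscaled. The deposited fold enrichment is the ratio of that pileup to the local input background, and the deposited -log10 p-values and q-values are those of the peak caller. The headers give a p-value cutoff of 1e-05, where the methods name a stricter one, and up to 2 tags per position were kept for BMAL1 and 1 for MAX. Samples were grouped by antibody. All listed peaks were used. Genes, TSSs and bases came from GENCODE release 44 on GRCh37, the assembly that hg19 names, and all peaks lay within its chromosomes. Summit windows ran from 99 bp before to 100 bp after the summit, and distances to an element are from its centre. Overlap meant 1 bp or more, and ratios used, per BMAL1 peak, only the MAX peak sharing most bases with it. Peak assignment and motif search were tested on simulated data. With 1 library per antibody no test was made. All 8 members with every peak are named, and other genes only from fixed lists or as neighbours. The members and lists were chosen with earlier results of these data known. Alternatives covered the p-value threshold, window, TSS set, placement, overlap, measure and motif rule. Python 3.11.15, numpy 2.4.6, pandas 2.3.3, scipy 1.17.1 and matplotlib 3.10.9 were used.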

Additional observations from a re-analysis of the deposited data

How the results depend on the processing

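Of 65 alternative values, 58 stayed within 1.5 times the reported one, and 7 did not. These values are not independent, and many of the 58 are counts of 1 that rest on the single BMAL1 peak at KLF9. At a -log10 p of at least 12 the number of MAX peaks at the KLF genes fell from 20 to 9. The weakest of these 9, the upstream KLF15 peak with 12.11, stood above 46.0% of the whole MAX list by this measure. Members with a MAX peak fell from 6 to 5, while the share of all protein-coding genes with one fell from 54.8% to 39.1%. KLF4 lost all 3 of its peaks, and KLF5, KLF6, KLF9, KLF10 and KLF15 kept 1, 2, 3, 2 and 1. Within 1 kb of a TSS there were 10 MAX peaks at the KLF genes. The share of protein-coding genes with a BMAL1 peak was 8.4% in windows of 50 kb and 1.84% within 1 kb, and the share with a MAX peak within 1 kb was 36.3%. An E-box was found at 1 MAX peak of the KLF genes in the 100 bp at the summit, a count without a list-wide share. Anywhere in the peak it was found in 4 of 20 (20.0%), against 29.8% of all MAX peaks. The single BMAL1 peak, at KLF9, and its overlap with a MAX peak were kept under each alternative tried for them. None of these settings could have removed the peak, with a -log10 p of 18.29 and a summit 573 bp from the TSS. Nor could they have removed the overlap, with 530 of 545 bp shared and summits 58 bp apart. By pileup or -log10 p the median KLF peak stood above 37.3% or 35.8% of the MAX list, against 51.3% by fold enrichment. A peak with few fragments has a wide interval, and at this depth a gene without a listed peak cannot be called unbound. No paired analysis was possible because each antibody had 1 library.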
